A study of Mus musculus with 7 samples.

Results

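The genes described here carry cells through DNA replication and division. The list held 48 genes by name, and 46 of them, 22 of S phase and 24 of mitosis, occurred among the 23930 genes of both deposited count tables; Pcna and Ccnb1 were not analysed here. They are listed by name and role, and the rule uses no measured value, but they were chosen with earlier results of these data known. All libraries came from bone marrow cells that were purified by fluorescence-activated sorting from mice given zinc in the drinking water for 15 days, controls included. The pMT-10 strain overexpresses interleukin-10 from a transgene that zinc switches on through a metallothionein promoter, so the cytokine need not come from the sorted cells themselves. BL/6 mice were the controls. Both strains gave 2 libraries of common myeloid progenitors (CMPs). The pMT-10 strain alone gave 2 more of Lineage- SCA-1+ c-KIT+ CD150+CD48+ cells, called LSK cells from here on, and 1 of haematopoietic stem cells (HSCs). For the CMP and HSC sorts the labels give no gates, and for no library do they give the number, age or sex of the mice. Nothing in them says that replicate libraries are from different animals, so the p-values reflect a spread between libraries that may be technical.

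A cell that leaves G1 turns on cyclin E with CDK2 and the E2F factors, which drive the genes of DNA synthesis. CDC6 and CDT1 load the MCM helicase onto replication origins, CDC45 and the GINS complex switch it on, polymerase alpha with its primase starts each strand, and ribonucleotide reductase, thymidylate synthase and thymidine kinase supply the nucleotides. Cyclin A and cyclin B with CDK1, the Aurora and Polo kinases, the spindle checkpoint and the anaphase-promoting complex (APC/C) then carry the cell through mitosis. In bone marrow, stem cells are known for mostly resting in G0, whereas committed progenitors divide often. In sorted bulk RNA, fewer cycling cells and less RNA of a gene per cell cannot be told apart.

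The assay, Ion AmpliSeq Transcriptome, amplifies 1 stretch of each transcript, so values were compared between libraries and never between genes. Library totals ran from 7372430 to 13854314 counts, and 10104 to 10620 genes had at least 10 counts. Every member had counts in every library, from 8 for Gins2 in a pMT-10 CMP library to 16616, and 40 of the 46 had at least 100 counts in each. Levels below are CPM, counts scaled to library size with the trimmed mean of M values. Libraries were read on 2 chips: the pMT-10 CMP and LSK libraries on one, the BL/6 CMP and HSC libraries on the other. The deposited names date the 2 chips months apart, so chip below stands for everything that differed between these dates. Strain and chip therefore cannot be told apart in the CMPs, LSK against pMT-10 CMPs lay within one chip, and HSC against BL/6 CMPs lay within the other with strain and population both different. The pMT-10 CMP pair was the most unlike, with a standard deviation of the log2 difference between its libraries of 0.58 over the members, against 0.36 for the LSK pair and 0.22 for the BL/6 CMP pair.

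The sort labels were compared with marker genes. The HSC markers Procr, Hlf, Mecom and Fgd5 were each highest in the HSC library. Procr stood at 38.5 CPM there against at most 2.20 CPM elsewhere, Hlf at 77.7 against at most 25.1, Mecom at 47.6 against at most 4.09 and Fgd5 at 26.2 against at most 1.66. Ly6a, which encodes SCA-1, stood at 331 CPM in HSCs and at 325 and 249 CPM in LSK cells. It was lower in CMPs, at 19.4 and 28.0 CPM for pMT-10 and 0.0923 and 2.02 CPM for BL/6. Cd48 was at 6.48 CPM in HSCs and at 63.6 and 40.5 CPM in LSK cells. Procr had 0 counts in one LSK library and 0.719 CPM in the other. Erythroid markers (8 measured of 10 listed) summed to 12782 and 15125 CPM in BL/6 CMPs, 10842 and 9529 in pMT-10 CMPs, 9401 and 11633 in LSK cells and 2393 in HSCs. Granulocyte markers (8 of 8) summed to 242 and 216 CPM in BL/6 CMPs, 551 and 856 in pMT-10 CMPs, 54.1 and 43.4 in LSK cells and 119 in HSCs. The 6 monocyte and macrophage markers summed to at most 7.50 CPM. Of the T cell, B cell and stromal markers, Col1a1 was at 0 in every library and Cd3e, Cd3g, Cd8a, Ms4a1 and Cdh5 at or below 0.117 CPM, whereas Nkg7, Cd79b and Pecam1 were present in every library, Cd79b at 52.3 CPM in HSCs.

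The promoters were searched for short motifs, as a description of the members of each phase that uses no expression value. RefSeq promoter windows (GRCm38.p6, 250 bases before to 50 bases after the annotated start) were matched by symbol to 37 of the 46 members; Cdc25c, Tpx2, Ccne2, Gins2, Ccna2, Foxm1, Aurkb, Gins1 and Mcm4 had no match. Each window was searched on both strands for exact letters of the CHR core (TTTGAA, an element bound by the DREAM and MuvB complexes), the NF-Y box (CCAAT) and an E2F site in the forms TTTCCCGC and TTTGGCGC; none of these contains another. Stretches of 4 genes are shown from 200 to 21 bases before the RefSeq start, on the gene's strand, with matches in capitals. The last 11 bases for Ube2c and the last 6 for Cdk1 lie inside the gene as GENCODE M21 bounds it. The stretches pair, for each phase, a gene whose level passed the test in some comparison (Cdk2, Ube2c) with one whose level passed in none (Mcm6, Cdk1).
Cdk2, chr10:128705072-128705251, minus strand: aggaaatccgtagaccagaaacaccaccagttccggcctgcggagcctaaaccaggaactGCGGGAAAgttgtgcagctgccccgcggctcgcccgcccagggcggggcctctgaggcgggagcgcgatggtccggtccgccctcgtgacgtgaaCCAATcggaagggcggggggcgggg
Mcm6, chr1:128359726-128359905, minus strand: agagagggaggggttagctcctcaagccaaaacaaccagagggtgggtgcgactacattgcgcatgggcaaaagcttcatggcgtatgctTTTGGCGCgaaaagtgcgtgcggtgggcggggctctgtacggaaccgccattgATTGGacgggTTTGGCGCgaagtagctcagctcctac
Ube2c, chr2:164769729-164769908, plus strand: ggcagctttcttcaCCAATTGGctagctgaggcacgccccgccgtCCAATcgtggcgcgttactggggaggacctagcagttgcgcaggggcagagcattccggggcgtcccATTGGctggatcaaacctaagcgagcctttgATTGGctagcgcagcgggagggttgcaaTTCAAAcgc
Cdk1, chr10:69352933-69353112, minus strand: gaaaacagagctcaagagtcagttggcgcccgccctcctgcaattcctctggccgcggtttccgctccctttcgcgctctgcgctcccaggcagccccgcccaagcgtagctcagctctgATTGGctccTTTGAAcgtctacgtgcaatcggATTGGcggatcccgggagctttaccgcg

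The Cdk2 stretch carries 1 E2F match and the Mcm6 stretch 2, each stretch with 1 NF-Y box. The Ube2c and Cdk1 stretches each carry 1 CHR core downstream of an NF-Y box and no E2F match, and in Ube2c a pair of NF-Y boxes on opposite strands overlap. Outside the stretches, the searched windows held a further CHR core for Cdk1, at -15 from the start, and further NF-Y boxes for Mcm6, Ube2c and Cdk1. Over all matched members, counted as genes with a match in any of their windows, a CHR core lay in 14 of 19 mitotic genes (73.7%) and in 3 of the other 18 (16.7%), against 20.2% of the 27025 genes in the table. An NF-Y box lay in 17 mitotic (89.5%) and 12 S phase genes (66.7%), against 41.1% of all. An E2F match of either form lay in 9 of the S phase genes (50%) and in 0 of the 19 mitotic ones, against 1.80% of all. These letters are matches and not sites shown to be bound, and members on the list include genes long used as examples of each element. The windows were not matched for base composition.

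**Figure D1:**
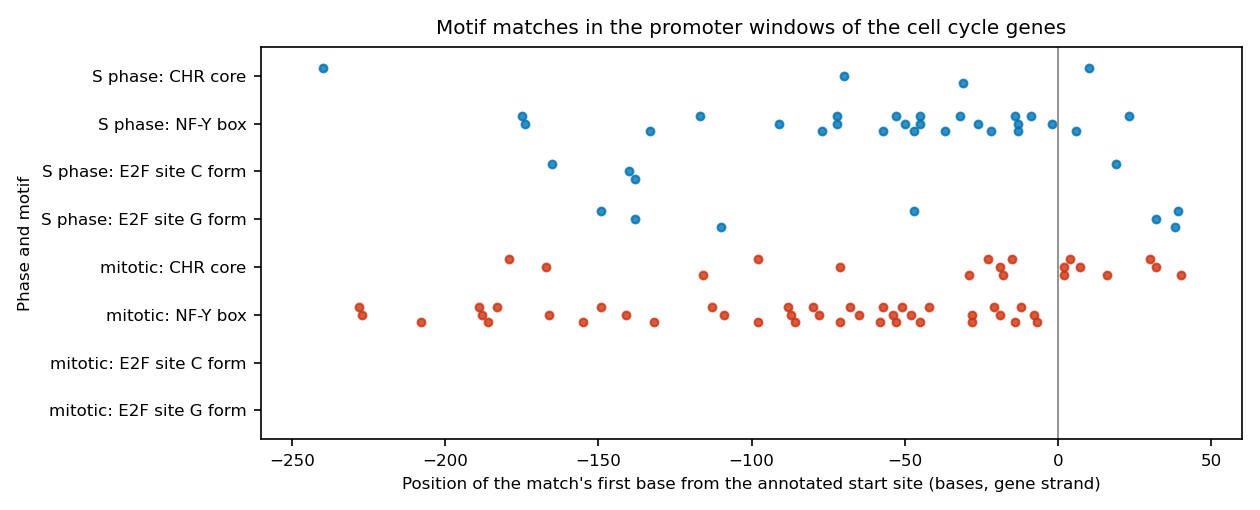
Positions of motif matches in the promoter windows of the 37 members with one, as the distance in bases of the first matched base from the annotated start (horizontal axis), by phase and motif (vertical axis); each point is 1 match. CHR cores lie in 14 of 19 mitotic genes, and E2F matches in 9 of 18 S phase genes and in none of the mitotic ones.

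The machinery was expressed in all 4 populations, and its summed level varied little. The 22 S phase genes summed to 5541 and 5738 CPM in BL/6 CMPs, 6369 and 6079 in pMT-10 CMPs, 6275 and 5496 in LSK cells and 5186 in HSCs. The 24 mitotic genes summed to 2970 and 3353 CPM in BL/6 CMPs, 3042 and 2973 in pMT-10 CMPs, 3672 and 3876 in LSK cells and 2582 in HSCs. Over these members HSCs were thus lowest for both phases, and the LSK pair highest for mitosis with no overlap with the other libraries. Other genes of the same processes, described below, did not repeat all of this. The 60 other mitosis genes summed to 10110.5 and 9310 CPM in LSK cells, 8622 and 9394 in BL/6 CMPs and 6807 in HSCs. The 45 other replication genes summed to 6211 CPM in HSCs and to 5878 in an LSK library. These sums are led by the genes with the most counts. Gene by gene, the ratio of the highest to the lowest group mean had a median of 1.75 over the members, from 1.08 for Mcm4 to 6.13 for Gins2, and reached 2 for 20 of 46 (43.5%). Over all 11429 genes tested the median was 2.11, and 56.0% reached that ratio.

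**Figure D2:**
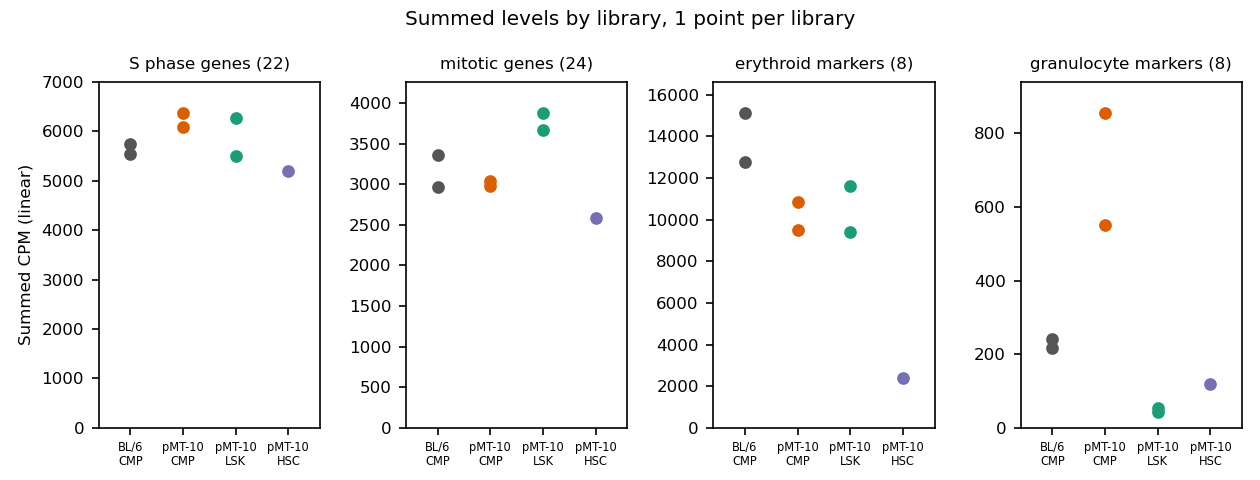
Summed CPM (vertical axes, linear from 0) of the S phase genes, the mitotic genes, the erythroid markers and the granulocyte markers in each library (1 point per library) of the 4 populations (horizontal axes). The mitotic sum runs from 2582 in HSCs to 3876 in an LSK library, while the erythroid sum runs from 2393 to 15125.

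The phases were ordered differently over the populations. Of the mitotic genes, 13 of 24 (54.2%) had their highest group mean in LSK cells and 12 of 24 (50%) their lowest in HSCs, while none had its lowest in LSK cells. Over all tested genes 18.3% were highest in LSK cells, 29.9% lowest in HSCs and 19.2% lowest in LSK cells. S phase genes were spread more evenly, with 7 of 22 highest in pMT-10 CMPs, 6 in LSK cells, 5 in BL/6 CMPs and 4 in HSCs. Over all tested genes the shares in that order were 26.4%, 18.3%, 24.7% and 30.6%. On a log2 scale relative to the mean of the 4 groups, the median mitotic gene stood at -0.22 in HSCs, 0.14 and 0.35 in LSK cells, -0.08 and -0.06 in pMT-10 CMPs and 0.03 and 0.26 in BL/6 CMPs. Only 3 of 24 mitotic genes lay above 0 in HSCs, against 16 and 22 in the LSK libraries. Of all 11429 tested genes 5851 lay above 0 in HSCs, and 5448 and 5648 in the LSK libraries. The median S phase gene stayed between -0.12 and 0.19 in every library.

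**Figure D3:**
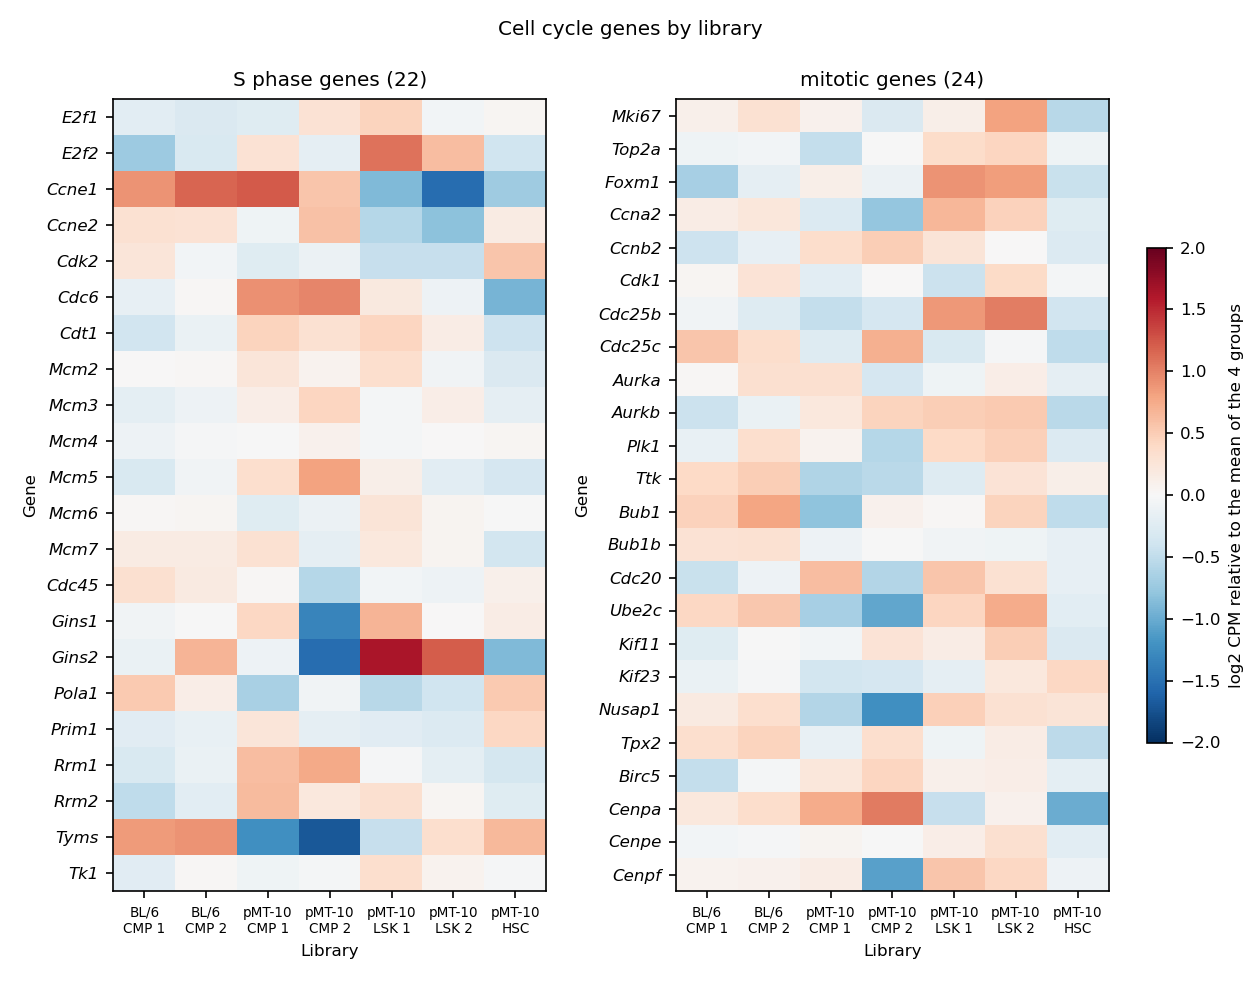
Level of each of the 46 genes (rows, by phase and role) in each of the 7 libraries (columns), coloured by log2 CPM relative to the mean of the 4 groups, from blue (lower) to red (higher). The mitotic panel is mostly red in the LSK columns, where 16 and 22 of 24 genes lie above 0, and pale blue in the HSC column, where 3 do, while Tyms and Cdc6 run in opposite directions across the S phase panel.

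The cyclin E genes and their kinase did not move as a unit. Ccne1 (cyclin E1) was at 70.3 and 85.0 CPM in BL/6 CMPs, 88.5 and 55.1 in pMT-10 CMPs, 20.2 and 12.7 in LSK cells and 22.6 in HSCs. The 4 CMP libraries thus lay above all 3 of the stem cell and LSK libraries. Ccne2 (cyclin E2) was at 40.7 and 40.1 CPM in BL/6 CMPs, 31.1 and 49.7 in pMT-10 CMPs, 36.8 in HSCs and lower, at 22.0 and 18.3, in LSK cells. Cdk2, the kinase that both cyclins activate, was highest in HSCs (340.1 CPM), followed by BL/6 CMPs (274 and 222), pMT-10 CMPs (195 and 212) and LSK cells (167 and 167). The transcription factor gene E2f2 was highest in LSK cells, at 31.4 and 22.7 CPM, against 8.58 to 17.9 CPM in the others. E2f1 was at 93.6 and 88.3 CPM in BL/6 CMPs, 91.1 and 133 in pMT-10 CMPs, 147 and 104 in LSK cells and 112 in HSCs, so that both BL/6 CMP libraries lay below the HSC and LSK ones and the pMT-10 CMP libraries overlapped with them.

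Origin licensing genes had their highest mean in pMT-10 CMPs and their lowest in HSCs. Cdc6, the loader of the MCM helicase, had levels of 142 and 148 CPM in pMT-10 CMPs, 66.5 and 76.4 in BL/6 CMPs, 85.4 and 69.3 in LSK cells and 39.2 in HSCs. The pMT-10 CMP libraries lay above every other and the HSC library below every other. Its partner Cdt1 had 186 and 169 CPM in pMT-10 CMPs, 186 and 152 in LSK cells, against 105 and 125 in BL/6 CMPs and 103 in HSCs. Within the helicase itself, Mcm5 measured 365 and 502 CPM in pMT-10 CMPs, 235 and 274 in BL/6 CMPs, 314 and 251 in LSK cells and 228 in HSCs. The other subunits varied less: Mcm4 stayed between 263 and 303 CPM and Mcm6 between 973 and 1379 CPM. Mcm2 was at 654 and 667 CPM in BL/6 CMPs, 771 and 682 in pMT-10 CMPs, 822 and 619 in LSK cells and 532 in HSCs.

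The genes that activate the helicase and start synthesis held the most variable member. Gins2, a GINS subunit, was at 12.2 and 8.92 CPM in LSK cells, 3.23 and 6.06 in BL/6 CMPs, 3.31 and 0.927 in pMT-10 CMPs and 1.72 in HSCs, the lowest of these being 8 and 13 counts. Cdc45 stayed between 28.0 and 52.8 CPM. Pola1, the catalytic subunit of polymerase alpha, was at 71.0 and 53.8 CPM in BL/6 CMPs and 70.8 in HSCs, and lower at 31.1 and 46.8 in pMT-10 CMPs and 33.2 and 37.1 in LSK cells. The libraries of the one chip thus lay above those of the other.

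Nucleotide supply divided into opposite patterns. Rrm1, the large subunit of ribonucleotide reductase, reached 619.6 and 682 CPM in pMT-10 CMPs, with 325 and 366 in BL/6 CMPs, 396 and 349 in LSK cells and 314 in HSCs. Rrm2, the small subunit, measured 454 and 339 CPM in pMT-10 CMPs, 206 and 254 in BL/6 CMPs, 365 and 299 in LSK cells and 247 in HSCs. Both subunits were thus higher in pMT-10 than in BL/6 CMPs without overlap. Tyms, thymidylate synthase, measured 36.6 and 26.4 CPM in pMT-10 CMPs, 62.5 and 109 in LSK cells, 135 in HSCs and 155 and 161 in BL/6 CMPs. For this gene the pMT-10 CMP libraries were the lowest of the 7. Tk1, thymidine kinase, stayed between 112 and 166 CPM.

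Among genes that mark dividing cells, Mki67 was lowest in HSCs. It stood at 67.3 CPM there, at 80.6 and 105 in pMT-10 CMPs, 107 and 122 in BL/6 CMPs and 108 and 173 in LSK cells. Top2a, the topoisomerase that untangles sister chromatids, was at 499 and 522 CPM in LSK cells, against 365 and 372 in BL/6 CMPs, 278 and 385 in pMT-10 CMPs and 365 in HSCs. Foxm1, a transcription factor of G2 and mitosis, was at 26.9 and 25.8 CPM in LSK cells, 15.4 and 13.1 in pMT-10 CMPs, 8.77 and 12.4 in BL/6 CMPs and 10.3 in HSCs. For Top2a and Foxm1 both LSK libraries lay above every other library.

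Mitotic cyclins and their regulators varied more than CDK1. Ccna2 (cyclin A2) was at 680.0 and 589 CPM in LSK cells, 474 and 502 in BL/6 CMPs, 355 and 250.2 in pMT-10 CMPs and 362 in HSCs. Cdc25b, a phosphatase that activates CDKs, was at 79.1 and 87.4 CPM in LSK cells and between 30.8 and 41.0 CPM in the 5 other libraries. Cdk1 was at 144 and 169 CPM in BL/6 CMPs, 119.7 and 140.1 in pMT-10 CMPs, 103 and 181 in LSK cells and 136 in HSCs, and its groups overlapped save that both BL/6 CMP libraries lay above the pMT-10 CMP and HSC ones. Ccnb2 (cyclin B2) measured 222 and 244 CPM in pMT-10 CMPs, 208 and 175 in LSK cells, 130.2 and 155 in BL/6 CMPs and 144 in HSCs.

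The kinases and the APC/C genes also parted. Aurkb (Aurora B) was at 192 and 197 CPM in LSK cells, 158 and 186 in pMT-10 CMPs, 101 and 124 in BL/6 CMPs and 93.5 in HSCs. Plk1 (Polo-like kinase) was at 108 and 114 CPM in LSK cells, 73.6 and 103 in BL/6 CMPs, 85.8 and 55.0 in pMT-10 CMPs and 67.3 in HSCs. Ttk, a spindle checkpoint kinase, was at 18.0 and 19.4 CPM in BL/6 CMPs, 11.2 and 16.5 in LSK cells, 14.8 in HSCs and 8.82 and 9.15 in pMT-10 CMPs. Aurkb and Plk1 were therefore highest in LSK cells and Ttk in BL/6 CMPs. Ube2c, the ubiquitin-conjugating enzyme of the APC/C, was at 270.4 and 334 CPM in LSK cells, 265 and 289 in BL/6 CMPs, 173 in HSCs and 126 and 96.5 in pMT-10 CMPs. The pMT-10 CMP libraries were the lowest of the 7 for both Ube2c and Ttk.

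At the spindle and centromere, Cenpa, the histone variant of centromeres, measured 249.6 and 307 CPM in pMT-10 CMPs, 172 and 191 in BL/6 CMPs, 108 and 158 in LSK cells and 74.9 in HSCs, with no overlap between any groups. Nusap1, a spindle microtubule protein, had 27.7 and 17.6 CPM in pMT-10 CMPs, below the range of 47.7 to 58.5 CPM of all other libraries. Tpx2, which targets Aurora A to the spindle, was at 68.7 and 74.4 CPM in BL/6 CMPs, 48.7 and 68.6 in pMT-10 CMPs, 51.1 and 60.5 in LSK cells and 37.7 in HSCs. HSCs were thus lowest for Cenpa and Tpx2 and lay among the other populations for Nusap1. Kif23, a motor of cytokinesis, was highest in HSCs, at 64.0 CPM, against 36.9 to 55.5 CPM elsewhere. Birc5 (survivin) measured 441 and 507 CPM in pMT-10 CMPs, 404 and 414 in LSK cells, 270.3 and 368 in BL/6 CMPs and 329.9 in HSCs.

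**Figure D4:**
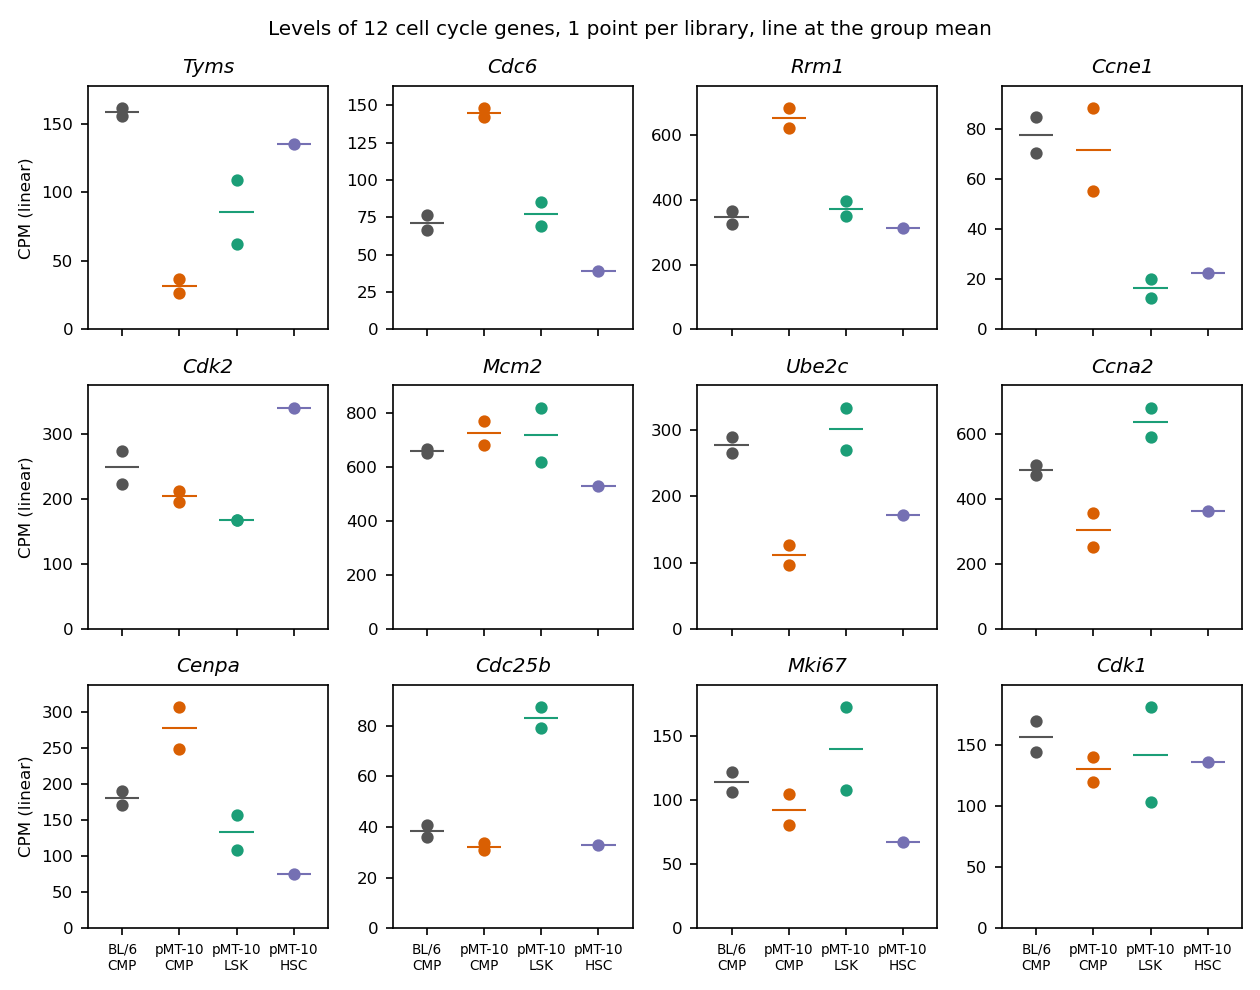
CPM (vertical axes, linear from 0) of 12 of the genes in BL/6 CMPs, pMT-10 CMPs, LSK cells and HSCs (horizontal axes), with 1 point per library and a line at the group mean. Tyms and Ube2c are lowest and Cdc6, Rrm1 and Cenpa highest in pMT-10 CMPs, and Cdc25b and Ccna2 are highest in LSK cells. Cdk1 overlaps between most groups, while Mcm2 is lowest in HSCs and overlaps only between LSK cells and the CMPs.

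Differences were then tested with edgeR's quasi-likelihood test over all 11429 genes, with Benjamini-Hochberg adjusted p under 0.05 as the threshold, and fold changes are given as log2 ± standard error. The HSC population had 1 library, so each comparison with it assumes that it varies like the other groups. Over the 5 comparisons, which share libraries, 24 members passed the threshold at least once, 12 of each phase, and 22 never did. The share of all genes that passed at least once was not counted. In single comparisons 11.8% to 28.0% of all genes passed, so these counts are not a trait of the members. Cdc6 was the only member that passed in all 5. Those that never passed include Mcm2, Mcm3, Mcm4, Mcm6 and Mcm7 among the replication genes, and Top2a, Cdk1, Aurka, Plk1, Bub1, Cdc20 and Birc5 among the mitotic ones.

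Between the CMPs of the 2 strains, 5 replication genes were higher and 1 lower in pMT-10, and mitotic genes went both ways, 2 higher and 4 lower. Of 46 members 12 passed, 7 higher and 5 lower in pMT-10 CMPs, which is 26.1% of them against 28.0% of all genes tested (14.3% higher and 13.7% lower). Levels in the libraries did not overlap for 15 members that were higher and 16 that were lower, against 33.2% and 33.7% of all genes. Cdc6 (1.02 ± 0.19, adjusted p = 0.00586), Rrm1 (0.92 ± 0.17, 0.00622), Rrm2 (0.79 ± 0.21, 0.0240), Mcm5 (0.77 ± 0.21, 0.0269) and Cdt1 (0.63 ± 0.19, 0.0367) were higher. Against this, Tyms fell by 2.33 ± 0.29 (adjusted p = 0.00171), the largest change of any member in this comparison and 5.02-fold between the group means. In mitosis, Ccnb2 (0.71 ± 0.19, 0.0219) and Aurkb (0.61 ± 0.19, 0.0385) rose. Ube2c fell by 1.32 ± 0.20 (adjusted p = 0.00300), Nusap1 by 1.15 ± 0.25 (0.0105), Ttk by 1.06 ± 0.28 (0.0237) and Ccna2 by 0.69 ± 0.21 (0.0347). The median log2 fold change was 0.07 over the S phase genes, -0.26 over the mitotic genes and 0.01 over all tested genes. Mki67 (-0.30 ± 0.25, adjusted p = 0.388) and Cdk1 (-0.27 ± 0.26, 0.465) did not pass. Strain and chip cannot be told apart here, and for Cdt1, Rrm2, Tyms, Ccnb2 and Aurkb the chips separated over all 7 libraries. The granulocyte markers that were higher in pMT-10 CMPs (7 of 8 passed) moved with the called genes, as did 2 of 8 erythroid markers that were lower. The part of chip or markers was not tested. Without either BL/6 CMP library only Tyms and Ube2c still passed (2 members), without pMT-10 CMP replicate 1 there were 22 and without replicate 2 there were 18. With only the 4 CMP libraries in the fit 9 passed, and Cdt1, Ccna2 and Aurkb did not.

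LSK cells had higher levels of 4 mitotic genes than CMPs of the same strain and chip, and lower levels of both cyclin E genes and of Cdc6. Of the members 11 passed, 6 higher and 5 lower in LSK cells, or 23.9% against 11.8% of all genes (5.92% in each direction). Libraries did not overlap for 18 higher and 11 lower members, against 27.8% and 27.9% of all genes. The higher ones included 4 mitotic genes, namely Ube2c (1.44 ± 0.20, adjusted p = 0.00387), Cdc25b (1.37 ± 0.20, 0.00423), Nusap1 (1.28 ± 0.25, 0.0145) and Ccna2 (1.07 ± 0.21, 0.0143). Tyms (1.45 ± 0.28, 0.0143) and Gins2 (2.29 ± 0.56, 0.0324), both of S phase, rose too. Ccne1 fell by 2.13 ± 0.31 (adjusted p = 0.00411), Ccne2 by 1.01 ± 0.26 (0.0393), Cdc6 by 0.91 ± 0.19 (0.0190) and Rrm1 by 0.81 ± 0.17 (0.0207). Cenpa was the 1 mitotic gene that fell, by 1.06 ± 0.22 (0.0184). The median was -0.07 over the S phase genes, 0.35 over the mitotic genes and -0.01 over all genes. Above 0 lay 18 of 24 mitotic genes, and 5589 of all 11429 genes. Top2a (0.62 ± 0.19, adjusted p = 0.0672), Plk1 (0.65 ± 0.25, 0.121) and Mki67 (0.60 ± 0.25, 0.142) did not pass, although their groups did not overlap. The comparison with BL/6 CMPs above used the same pMT-10 CMP libraries, which were lowest there for Tyms, Ube2c and Nusap1. Those libraries also lay above all others for Cdc6, Rrm1 and Cenpa. Mean levels in LSK cells and BL/6 CMPs were 77.3 and 71.5 CPM for Cdc6, 373 and 345 for Rrm1 and 133 and 181 for Cenpa. Granulocyte markers (7 of 8) and 1 of 8 erythroid markers were lower in LSK cells; their part was not tested. Without LSK replicate 1 no member passed by edgeR, with 17 at an unadjusted p under 0.05, and without LSK replicate 2 there were also 0, with 13 unadjusted. Without pMT-10 CMP replicate 1 there were 20, and with only the 4 libraries compared there were 7, Cdc6, Rrm1, Ccne2 and Gins2 being lost. DESeq2 on all libraries called 12.

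HSCs were lower than LSK cells for 4 mitotic genes at the threshold, and no mitotic gene passed it in the other direction. Of the members 9 passed, 2 higher and 7 lower in HSCs, or 19.6% against 18.8% of all genes (10.6% higher and 8.14% lower). The HSC library lay above both LSK libraries for 9 members and below both for 33, against 45.4% and 41.6% of all genes. The 4 mitotic genes that passed were all lower and made up 16.7% of the mitotic genes. Of all genes 18.8% passed in either direction and 8.14% were lower. Foxm1 fell by 1.35 ± 0.35 (adjusted p = 0.0306), Cdc25b by 1.34 ± 0.26 (0.00950), Mki67 by 1.06 ± 0.32 (0.0486) and Aurkb by 1.05 ± 0.24 (0.0181). Of 24 mitotic genes 22 had a log2 fold change below 0, with a median of -0.58 (0.03 over all genes, 5555 of 11429 of which lay below 0). No mitotic gene was higher at an unadjusted p under 0.05 or by DESeq2. S phase genes went both ways. Gins2 fell by 2.60 ± 0.77 (0.0451), E2f2 by 1.30 ± 0.39 (0.0489) and Cdc6 by 0.98 ± 0.25 (0.0264), whereas Cdk2 (1.02 ± 0.21, 0.0123) and Pola1 (1.01 ± 0.30, 0.0443) rose. These populations lay on different chips, which moves with the comparison, and for Cdk2, Pola1, E2f2, Foxm1 and Aurkb both chips separated over all 7 libraries, CMPs included. Of 8 erythroid markers 5 were lower and 1 higher in HSCs, and of 8 granulocyte markers 3 were higher; the part of chip or markers was not tested. Without LSK replicate 1 no member passed by edgeR (11 at an unadjusted p under 0.05), nor without LSK replicate 2 (12). Library totals without a composition factor left 7, E2f2 and Mki67 being lost, DESeq2 called 12, and a fit on the 3 libraries alone called 19. Gins2 was lost with a minimum count of 50.

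**Figure D5:**
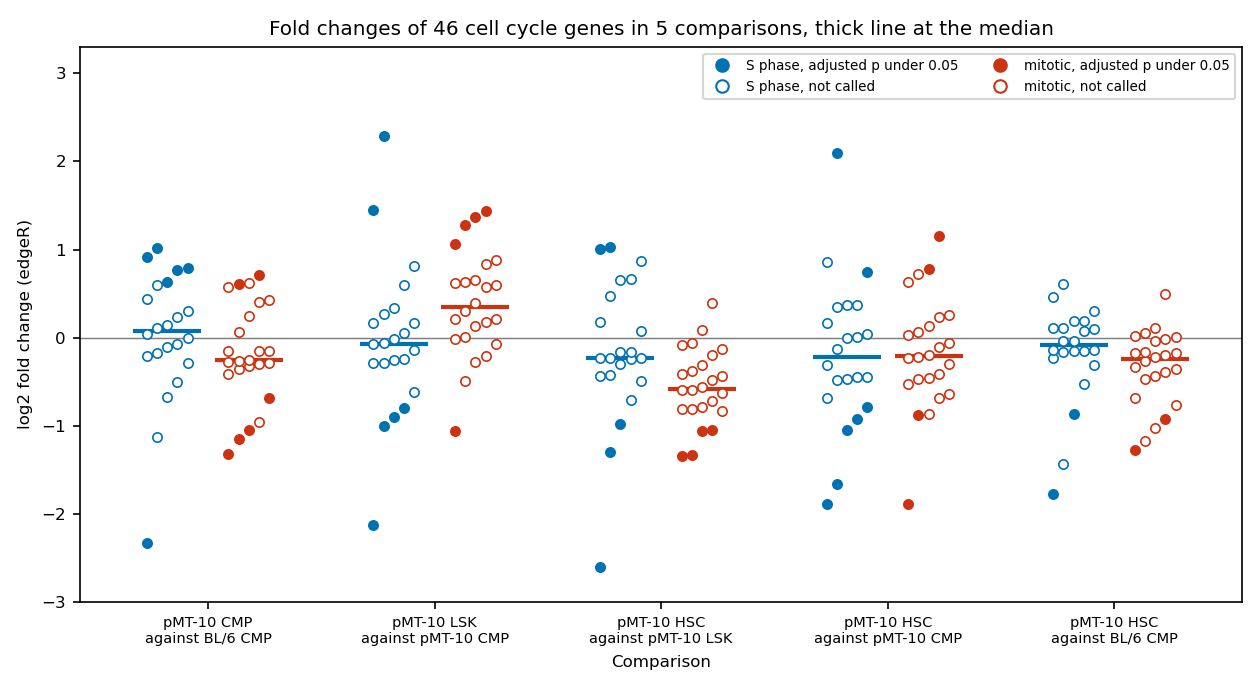
Fold changes (log2, edgeR; vertical axis) of the 22 S phase genes (blue) and 24 mitotic genes (red) in the 5 comparisons (horizontal axis), filled where the adjusted p was under 0.05, with a thick line at the median of each phase. The mitotic median lies at 0.35 for LSK cells against pMT-10 CMPs and at -0.58 for HSCs against LSK cells.

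Against pMT-10 CMPs, HSCs were lower for both licensing genes and for Ccne1. Of the members 11 passed, 4 higher and 7 lower in HSCs, or 23.9% against 25.5% of all genes (13.8% higher and 11.7% lower). The HSC library lay above both pMT-10 CMP libraries for 12 members and below both for 21, against 41.1% and 38.1% of all genes. Cdc6 fell by 1.89 ± 0.26 (adjusted p = 0.00170), Cenpa by 1.89 ± 0.30 (0.00306), Ccne1 by 1.67 ± 0.39 (0.0160) and Rrm1 by 1.05 ± 0.22 (0.0106). Mcm5 fell by 0.92 ± 0.27 (0.0354), Aurkb by 0.88 ± 0.24 (0.0274) and Cdt1 by 0.79 ± 0.24 (0.0411). Tyms rose by 2.10 ± 0.32 (0.00293), with Nusap1 (1.15 ± 0.29, 0.0219), Kif23 (0.78 ± 0.25, 0.0491) and Cdk2 (0.74 ± 0.21, 0.0326). The medians of both phases were close, at -0.22 for S phase and -0.21 for mitosis, with 0.02 over all genes. Chip differs here too, and both the erythroid markers (5 of 8 lower) and the granulocyte markers (7 of 8 lower) moved with the comparison; their part was not tested. In the fit on these 3 libraries alone only Cdc6, Ccne1, Cenpa and Tyms passed (4 members), and these 4 passed under every alternative run. Without pMT-10 CMP replicate 1 there were 22, and Kif23 was lost with library totals, DESeq2 and a minimum count of 50 as well.

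Against BL/6 CMPs, read on the same chip, HSCs differed in few members. None were higher and 4 were lower, or 8.70% against 20.3% of all genes (11.8% higher and 8.50% lower). The HSC library lay above both BL/6 CMP libraries for 6 members and below both for 30, against 45.0% and 45.7% of all genes. Ccne1 fell by 1.78 ± 0.39 (adjusted p = 0.0133), Cenpa by 1.28 ± 0.29 (0.0143), Tpx2 by 0.92 ± 0.28 (0.0485) and Cdc6 by 0.87 ± 0.25 (0.0355). At an unadjusted p under 0.05 edgeR had 1 higher and 8 lower, and DESeq2 also called 0 higher and 4 lower. Cdc6, Cenpa and Ccne1 were thus lower in HSCs against the CMPs of each strain, those of pMT-10 and those of BL/6. Both comparisons rest on the same HSC library. The median was -0.09 over the S phase genes, -0.25 over the mitotic genes and -0.01 over all genes. Below 0 lay 19 of 24 mitotic genes, and 5785 of all 11429 genes. Mki67 (-0.76 ± 0.32, adjusted p = 0.120) did not pass, and Top2a (-0.02 ± 0.24, 0.971) and Cdk1 (-0.20 ± 0.32, 0.696) were nearer 0. Strain and population both differ in this comparison, and 7 of 8 erythroid and 2 of 8 granulocyte markers were lower in HSCs; their part was not tested. Without BL/6 CMP replicate 1 Ccne1 and Cenpa still passed (2 members), without replicate 2 there were 0 by edgeR (4 at an unadjusted p under 0.05), and in the fit on the 3 libraries alone there were 19. Tpx2 was lost with library totals without a composition factor.

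The chips separated 13 of 46 members completely (28.3%, against 21.7% of all tested genes). On the chip with the BL/6 CMP and HSC libraries, 4 S phase genes (Cdk2, Cdc45, Pola1 and Tyms) lay above every library of the other chip. Below every library of the other chip lay 4 more S phase genes (E2f2, Cdt1, Mcm3 and Rrm2) and 5 mitotic genes (Foxm1, Ccnb2, Aurkb, Birc5 and Cenpe).

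Other genes of the same processes were taken from lists by role. Of 45 other replication genes tested, 5 were higher and 6 lower in pMT-10 than in BL/6 CMPs (24.4%, against 28.0% of all genes). The leading ones were Gins4 (1.71 ± 0.21, adjusted p = 0.00173), a further GINS subunit, Dbf4, the activator of the CDC7 kinase, which fell by 1.51 ± 0.23 (0.00287), and the DNA ligase gene Lig1 (0.95 ± 0.19, 0.00703). Of 60 other mitosis genes, 1 was higher and 11 were lower in pMT-10 CMPs (20%, against 28.0% of all genes). They were led by Cdca3, which fell by 1.13 ± 0.18 (0.00332), the spindle pole gene Aspm by 1.09 ± 0.22 (0.00823) and the condensin gene Smc4 by 0.76 ± 0.17 (0.0111). Of 15 genes of the E2F factors and the DREAM complex, 0 were higher (1 at an unadjusted p under 0.05) and 6 were lower in pMT-10 CMPs by edgeR (40%, against 28.0% of all genes). Tfdp2, an E2F partner, fell by 1.65 ± 0.22 (0.00205), the pocket protein gene Rbl1 by 1.57 ± 0.36 (0.0127) and E2f3 by 1.04 ± 0.20 (0.00697).

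In LSK cells against pMT-10 CMPs, 5 of the 60 other mitosis genes were higher and 1 lower (10%), and 1 of the 45 other replication genes was higher and 4 lower (11.1%), against 11.8% of all genes. The median log2 fold change of the other mitosis genes was 0.08, against 0.35 for the mitotic members. Gtse1, a G2 and S phase gene, rose (1.01 ± 0.18, adjusted p = 0.00993), while the helicase gene Recql4 fell by 1.07 ± 0.19 (0.0101) and the spindle gene Tacc3 by 1.10 ± 0.24 (0.0201). In HSCs 4 of the 60 other mitosis genes were lower and none higher than in LSK cells (6.67%, against 18.8% of all genes; 2 higher at an unadjusted p under 0.05 by edgeR). Ect2, which directs the cleavage furrow, fell by 1.81 ± 0.31 (0.00654) and Fzr1, an APC/C activator of G1, by 1.43 ± 0.23 (0.00514). The replication kinase gene Cdc7 rose in the same comparison (1.46 ± 0.24, 0.00522). Ect2 was also lower in HSCs than in pMT-10 CMPs, by 1.49 ± 0.31 (0.00991), and than in BL/6 CMPs, by 1.95 ± 0.32 (0.00310). The replication checkpoint gene Clspn fell by 2.62 ± 0.46 (0.00506) in HSCs against pMT-10 CMPs. Of the genes of E2F factors and DREAM, 5 of 15 were higher and 1 lower in HSCs than in pMT-10 CMPs (40%, against 25.5% of all genes), with Tfdp2 leading (1.51 ± 0.26, 0.00447). Without a BL/6 CMP library, 4 or 5 of the 29 calls on these lists between the CMPs held, and 1 of the 11 for HSCs against BL/6 CMPs. Without an LSK library edgeR called none for LSK cells against pMT-10 CMPs (16 and 23 at an unadjusted p under 0.05) and 0 or 1 of 12 held for HSCs against LSK cells (18 and 25 at an unadjusted p under 0.05). Without a pMT-10 CMP library, 29 and 28 of the 29 held between the CMPs and all 18 for HSCs against pMT-10 CMPs, where 49 and 38 genes were then called.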

How the data were processed

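Raw read counts per gene, 1 amplicon each without molecular identifiers, were used as deposited by the authors in 2 tables, 1 per chip; per the labels' protocols, RNA was extracted with RNeasy Micro kits and libraries were made with the Ion AmpliSeq Transcriptome Mouse kit. The submitters' processing notes name the build mm10. Which aligner or counter was used is not given in the sources used here. The tables were joined by gene symbol. Groups came from the labels. The members and lists were chosen with earlier results of these data known.

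Counts were tested with edgeR 4.0.16 (R 4.3.3; robust quasi-likelihood fit, trimmed mean of M values, filterByExpr with a minimum count of 10) on all 7 libraries with 4 group means, leaving 3 residual degrees of freedom. Fold changes, standard errors and Benjamini-Hochberg adjusted p-values cover 11429 genes; 5957 of 23930 had no counts. Relative levels used log2(CPM + 0.5). A count of 3 equals 0.216 to 0.397 CPM by library. Alternatives were other scalings and filters, DESeq2 1.42.0, only the groups compared, a replicate block and leaving out each replicate. The test code was also run on simulated counts, with the same spread in every group and no chip effect. Those settings differ from these data, so that run cannot judge single calls. Named were a fixed set of members, every called member up to 6 per phase and comparison with the smallest p, and up to 3 called genes per comparison of the other lists; further members were named for their range or steadiness after their values were seen. RefSeq windows of 300 bases gave promoter sequences. Read counts within each pair differed by more than counting noise (chi-square per degree of freedom of 7.40 to 51.1), so no library was taken as a deposited copy of another; this does not tell separate animals from technical preparations. Some marker genes are not reported here.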

Additional observations from a re-analysis of the deposited data

How the results depend on the processing

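Every member called kept its direction under every alternative run, but few calls held throughout: 2 of 12 between the CMPs (Tyms, Ube2c), 0 of 11 for LSK cells against pMT-10 CMPs, 0 of 9 for HSCs against LSK cells, 4 of 11 for HSCs against pMT-10 CMPs and 0 of 4 for HSCs against BL/6 CMPs. With 1 library left out, edgeR called 582 to 5268 genes and 2 to 22 members between the CMPs, 44 to 4274 and 0 to 20 for LSK cells against pMT-10 CMPs, 266 to 352 and 0 for HSCs against LSK cells, 4635 to 5222 and 16 to 22 for HSCs against pMT-10 CMPs, and 815 to 918 and 0 to 2 for HSCs against BL/6 CMPs; the lone library of such an arm is assumed to vary like the other groups, and the HSC library could not be left out.

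The replicate numbers did not pair the libraries (correlations of deviations -0.03, -0.02 and -0.09); the replicate block gave 2979 genes and 15 members between the CMPs and 1181 genes and 11 members for LSK cells against pMT-10 CMPs. No paired analysis was possible because the HSC library carries no number, for its 3 comparisons.

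With no filter on low counts, LSK cells against pMT-10 CMPs gave 2237 genes and 17 members, HSCs against LSK cells 14 members and HSCs against BL/6 CMPs 7. Fits on only the groups compared gave 595 genes and 7 members for LSK cells against pMT-10 CMPs, 3987 and 19 for HSCs against LSK cells, 1042 and 4 for HSCs against pMT-10 CMPs, and 6127 and 19 for HSCs against BL/6 CMPs. The cause was not tested.

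Signs were followed only for the fixed set of members and those called in each comparison. Among these, signs turned only in members that had not passed. For HSCs against pMT-10 CMPs, E2f1 had a log2 fold change of 0.0039 with RLE size factors, 0.011 with library totals and 0.0018 with DESeq2, and for HSCs against BL/6 CMPs Top2a had 0.043 with library totals. Leaving out 1 library also turned signs, and for those genes the range over all alternative runs follows. Between the CMPs they were Ccne1 (-0.49 to 0.19) and Top2a (-0.41 to 0.064). For LSK cells against pMT-10 CMPs they were E2f1 (-0.11 to 0.46), Mcm2 (-0.23 to 0.18) and Cdk1 (-0.34 to 0.48). For HSCs against LSK cells they were E2f1 (-0.40 to 0.11) and Cdk1 (-0.41 to 0.40). For HSCs against pMT-10 CMPs they were E2f1 (-0.25 to 0.29), Top2a (-0.080 to 0.39), Cdk1 (-0.042 to 0.18) and Plk1 (-0.35 to 0.29). For HSCs against BL/6 CMPs they were Rrm2 (-0.088 to 0.21) and Birc5 (-0.21 to 0.24). Gins2, with 8 to 124 counts, is limited by depth, and intervals from counting alone would be too narrow because the reads carry no molecular identifiers.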

Other observations

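A few members disagreed within the pMT-10 CMP pair more than within any other pair. The higher library exceeded the lower more than 2-fold for 5 of 46 members there, namely Gins2 (3.57-fold), Gins1 (3.36-fold), Cenpf (2.39-fold), Cdc20 (2.31-fold) and Cdc25c (2.04-fold), against 0 members in the BL/6 CMP and LSK pairs. These 5 were chosen after their values were seen. Over all tested genes 19.2% exceeded that ratio in the pMT-10 CMP pair, 6.37% in the BL/6 CMP pair and 7.86% in the LSK pair. Gins1 was at 102 and 30.4 CPM in the pMT-10 CMP libraries and between 73.4 and 123 CPM in the others. Cenpf was at 59.9 and 25.0 CPM there and between 50.1 and 79.2 CPM in the others.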
